A study of Mus musculus with 4 samples.

Results

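Adipokines are the hormones and other signalling proteins that fat tissue releases. The 10 genes described here are 9 adipokines (Adipoq, Lep, Retn, Cfd, Rbp4, Nampt, Rarres2, Apln and Nrg4) and Lepr, the receptor of leptin. They were taken by gene symbol from the 55487 genes of a count table of mouse mammary fat pad (MFP), each symbol was on 1 row, and all 10 were among the 22485 genes with enough counts to be tested. RNA was sequenced from whole MFP of female C57BL/6J mice that were either young (8 weeks) or aged (14 months), with 2 samples of each age that the labels call biological replicates. No treatment or altered allele is named for either age, and the labels do not say whether a sample is 1 mouse or a pool of mice.

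Fat cells store triglyceride and signal how much they hold. Leptin, made by Lep, circulates in proportion to fat mass and acts on its receptor in the hypothalamus to restrain feeding, and in peripheral tissue the receptor signals through JAK2 and STAT3. Adiponectin, made by Adipoq, acts on muscle and liver through AMP-activated kinase, and its blood level is commonly lower in obesity although fat cells make it. The mammary fat pad is the white fat in which the mammary epithelium grows, so its RNA also holds epithelium, vessels, immune cells and any adjoining muscle.

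The 4 libraries held between 68803304 and 98402403 counts. Values are CPM, counts scaled to a common library size, on library sizes adjusted by the trimmed mean of M-values (TMM), and 3 counts, taken as the limit of detection, equalled 0.0337 to 0.0407 CPM. The lowest count of any of the 10 genes was 323. Markers of fat were present as the label says, and 10 genes of fat cells (perilipins and lipid enzymes among them) summed to 11569 and 9028 CPM in aged MFP and to 8333 and 8409 CPM in young MFP. Skeletal muscle genes stood out between the ages, because all 12 muscle markers were higher in both aged samples than in both young ones, where 23.3% of all genes were, and they summed to 45016 and 72091 CPM in aged and 11567 and 16034 CPM in young MFP. Lymphocyte markers stood out in 1 library, at 542 CPM in young replicate 1 against 2.97 CPM in young replicate 2 and 5.14 and 54.1 CPM in aged MFP. Mammary epithelial markers differed between the young samples, at 855 and 2081 CPM in replicates 1 and 2, with 1544 and 1534 CPM in aged MFP. The part of any of these in the values below was not tested. In bulk tissue, fewer cells of a type and less RNA per cell cannot be told apart.

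Per length of transcript, the adipokines ran from among the most abundant RNAs of the tissue to near the middle of the genes tested. Levels between genes are given as CPM per kb of the union of each gene's exons, as the mean of the 4 samples. Cfd was far ahead at 4091 CPM per kb, above 99.97% of the genes tested, and took 0.312 to 0.459% of all counts of a library. Adipoq followed at 521, Retn at 331, Rbp4 at 93.0 and Lep at 87.4 CPM per kb. Nrg4 (25.7), Nampt (20.0) and Rarres2 (19.9) came next in CPM per kb. Apln (2.76 CPM per kb) and Lepr (1.00 CPM per kb) were the lowest, and Lepr stood above only 31.66% of the genes tested. Cfd stood above Adipoq in every sample by more than the spread between samples. Retn (lowest sample 259 CPM per kb) was likewise clear of Rbp4 (highest 125), Lep (lowest 50.6) of Nrg4 (highest 39.6), and Rarres2 (lowest 11.4) of Apln (highest 4.80 CPM per kb). The other neighbours in this order, namely Adipoq and Retn, Rbp4 and Lep, Nrg4 and Nampt, Nampt and Rarres2, and Apln and Lepr, overlapped in their ranges over the 4 samples. Cfd encodes adipsin, the serine protease that starts the alternative complement pathway.

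**Figure D1:**
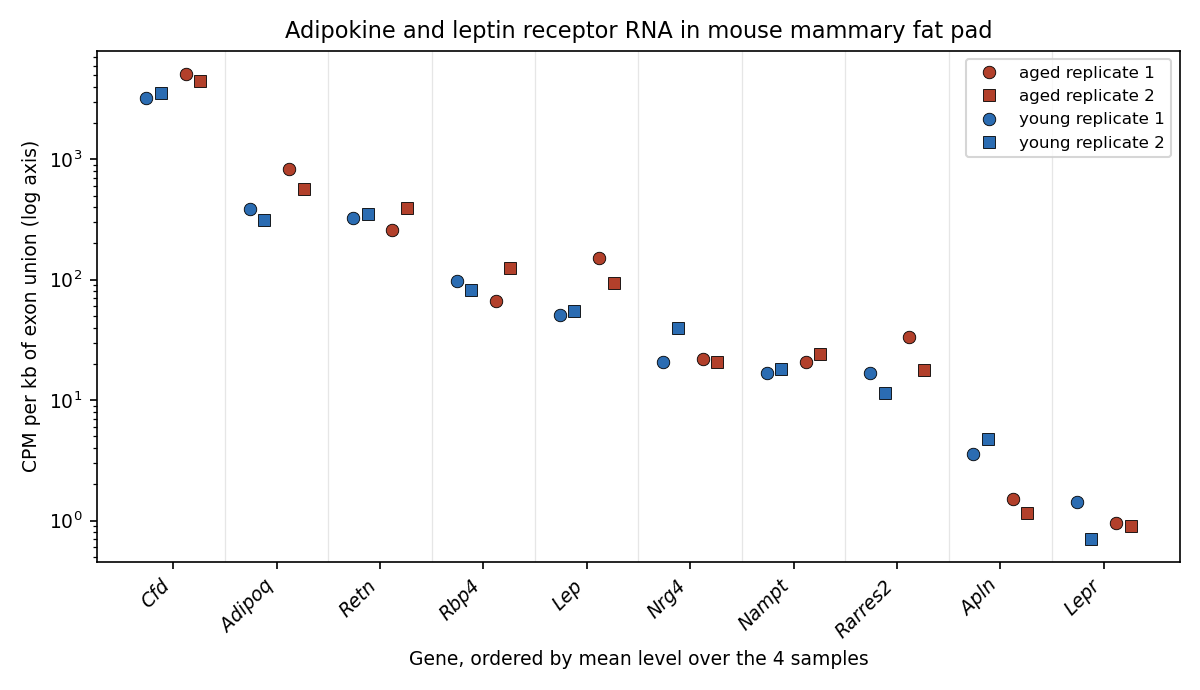
Level of the 9 adipokines and Lepr in each MFP sample, in CPM per kb of exon union on a log axis, with 1 point per sample. Cfd lies highest, between 3209 and 5106 CPM per kb, and Lepr lowest, between 0.709 and 1.44 CPM per kb.

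On all 4 samples, leptin and adiponectin RNA were fitted at about double the young level in aged MFP. Both differences were smaller without aged replicate 1 and larger without aged replicate 2. Apelin RNA was lower in both aged samples. Cfd and Retn, which fat cells also make, had log2 fold changes of 0.50 and -0.05. None of these differences passed the test across all genes in edgeR's quasi-likelihood fit (Benjamini-Hochberg adjusted p under 0.05), which called 0% of the 22485 genes, its smallest adjusted p being 0.360. Among the 10 genes, 6 had a fitted level higher in aged than in young MFP and 4 a lower one. Of all 22485 genes tested, 10558 had a higher fit and 11927 a lower one. The median log2 fold change of the 10 was 0.22 against -0.04 over all genes tested. At an unadjusted p under 0.05, edgeR placed 2 of the 10 higher (Adipoq and Lep), where 7.24% of all genes were so placed, and 1 lower (Apln), against 3.31% of all genes. DESeq2, run as an alternative on the same counts, called Lep higher and Apln lower, so 1 of 10 in each direction, against 3.17% of all genes higher and 0.692% lower.

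Both aged samples lay above both young samples for 5 of the 10 genes (Adipoq, Lep, Cfd, Nampt and Rarres2), where 23.3% of all genes did. Both aged samples lay below both young ones for 1 (Apln), where 22.8% of all genes did. The ages overlapped for Retn, Rbp4, Nrg4 and Lepr. For 1 gene in 2 against 2 samples, the smallest p of an exact two-sided permutation test is 0.333.

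**Figure D2:**
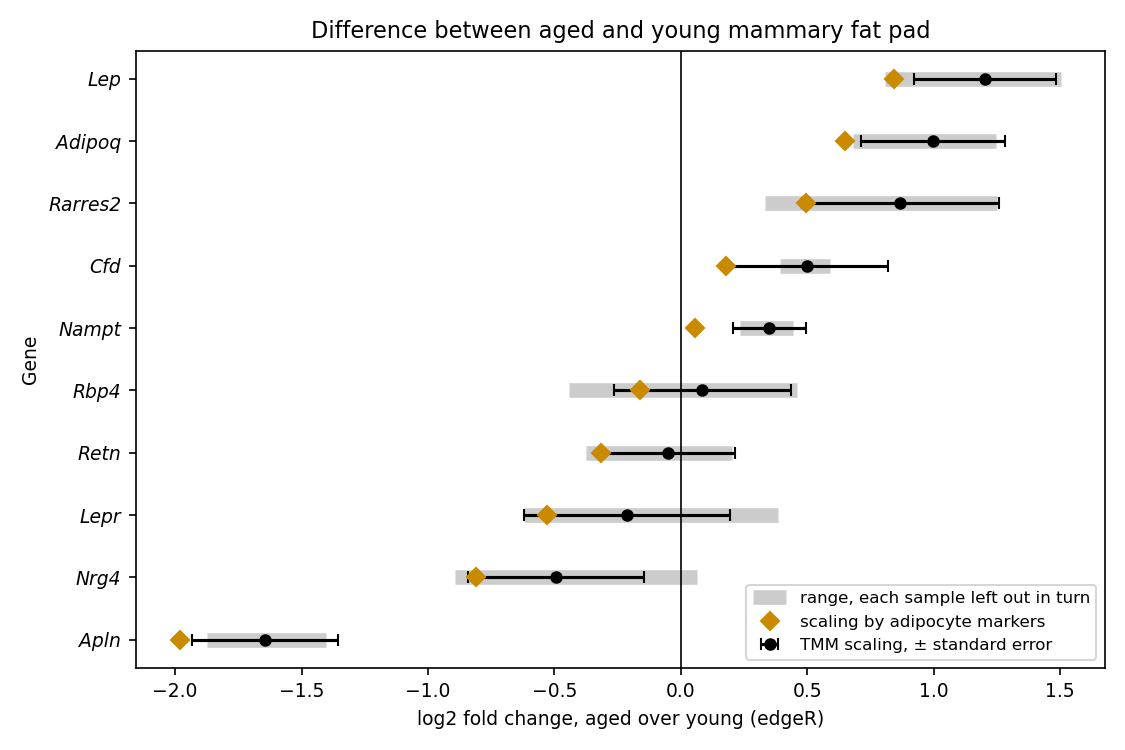
Log2 fold change of each gene in aged over young MFP from edgeR. Points show the fit on 4 samples with its standard error, and further marks show the range when 1 sample is left out and the value when libraries are scaled by fat cell markers. Lep (1.20) and Adipoq (1.00) lie highest and Apln (-1.64) lowest.

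Lep encodes leptin. It measured 503 and 314 CPM in aged replicates 1 and 2 and 169.7 and 186 CPM in young replicates 1 and 2. The means were 409 ± 134 CPM (SD, n = 2) in aged and 178 ± 11.3 CPM (n = 2) in young MFP, so the aged samples lay above the young ones without overlap and differed more from each other than the young samples did. The fitted level in aged MFP was 2.30-fold that in young, a log2 fold change of 1.20 with a standard error of 0.28, at an edgeR adjusted p of 0.404. DESeq2 gave a log2 fold change of 1.21 at an adjusted p of 0.0160. Over the 7 DESeq2 fits that were run, Lep's adjusted p ran from 0.00764 to 1.00 and passed the threshold in 3. It failed without aged replicate 1 (1.00), without aged replicate 2 (0.0652), with scaling by fat cell markers (0.149) and with total counts (0.106). It passed when either young sample was left out, where the 1 young sample left was assumed to vary as the aged pair did. In edgeR, the log2 fold change of Lep was 0.81 without aged replicate 1 and larger than 1.20 without aged replicate 2. Aged replicate 1 also had the highest fat cell markers of any library, which summed to 11569 CPM. The gene lies at chr6:29060220-29073877 on the plus strand of GRCm38.

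Adipoq encodes adiponectin. Its levels were 1141 and 777 CPM in aged replicates 1 and 2 and 531 and 430.0 CPM in the young replicates. The aged mean was 959 ± 257 CPM (SD, n = 2) and the young mean 480.5 ± 71.5 CPM (n = 2), again without overlap. The aged level was 2.00-fold the young one in the fit (log2 fold change 1.00), with a standard error of 0.28 and an edgeR adjusted p of 0.426. DESeq2 gave the same log2 fold change at an adjusted p of 0.0504, which ran from 0.0155 to 1.00 over its 7 fits. It passed only in the fit without young replicate 1, where the 1 young sample left was assumed to vary as the aged pair did. In edgeR, the log2 fold change of Adipoq was 0.68 without aged replicate 1, the library with the highest fat cell markers. It was larger than 1.00 without aged replicate 2. Adipoq lies at chr16:23146536-23158028 on the plus strand of GRCm38.

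Each of these 2 hormone genes was higher in both aged samples, and shared regulation was not tested. Their promoters are printed to show how far their start sites share the motif of C/EBP, a family of factors that drives fat cell genes. Each is the 250 bases upstream of the start site in RefSeq (GRCm38.p6), 5′ to 3′ on the plus strand, and capitals mark matches to the C/EBP motif TTGCNNAA on either strand. Lep is chr6:29059971-29060220 and Adipoq is chr16:23146286-23146535.
Lep: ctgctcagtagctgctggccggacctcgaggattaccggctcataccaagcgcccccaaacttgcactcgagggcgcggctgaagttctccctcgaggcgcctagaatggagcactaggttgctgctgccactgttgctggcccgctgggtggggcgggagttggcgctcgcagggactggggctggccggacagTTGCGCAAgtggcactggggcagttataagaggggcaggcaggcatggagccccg
Adipoq: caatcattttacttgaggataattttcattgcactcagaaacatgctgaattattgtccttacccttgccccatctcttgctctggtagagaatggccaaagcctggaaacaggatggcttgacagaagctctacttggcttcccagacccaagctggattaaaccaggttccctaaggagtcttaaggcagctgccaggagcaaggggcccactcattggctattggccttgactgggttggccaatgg
The Lep promoter held the motif between bases -55 and -48 from the start site, on both strands because the match reads the same on each. The Adipoq promoter held no match to it, to the TATA box motif TATAAA or to the DR1 element, here an exact pair of AGGTCA nuclear receptor sites 1 base apart, on either strand. Of the other members with a promoter entry, Rbp4 held the C/EBP motif (-128 to -121) and the TATA box motif (-28 to -23) at 1 of its 2 start sites, and Retn, Cfd, Nampt, Apln, Nrg4 and Lepr held none of the 3 motifs. Over the 32536 promoters searched, 9.57% held the C/EBP motif, 12.3% the TATA box motif and 0.0338% the DR1 element, so a match is common for the first and rare for the last. A match describes the letters only.

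Cfd and Retn are the other adipokines made chiefly by mouse fat cells. Cfd, the complement protease, measured 4707 and 4133 CPM in aged and 2959 and 3289 CPM in young MFP. Both aged samples were above both young ones, at 4420.0 ± 406 CPM against 3124 ± 233 CPM (SD, n = 2 each). The log2 fold change was 0.50 with a standard error of 0.32, at an edgeR adjusted p of 0.566. Retn encodes resistin, which lessens insulin action in mice. It was at 409 and 617 CPM in aged and at 509 and 553 CPM in young MFP. The young samples lay between the aged ones, so the groups overlapped, and the log2 fold change of -0.05 (standard error 0.26) had an edgeR adjusted p of 0.946. Its sign turned when aged replicate 1 was left out, to 0.20.

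Rbp4, Rarres2 and Nampt are secreted more widely than by fat alone. Rarres2 encodes chemerin, which draws immune cells through the receptor Cmklr1. It measured 89.2 and 47.6 CPM in aged and 44.7 and 30.2 CPM in young MFP. Both aged samples were higher, though aged replicate 2 lay close to young replicate 1, and the log2 fold change was 0.87 (standard error 0.39) at an edgeR adjusted p of 0.509. Without aged replicate 1 it was 0.33. Rarres2 shares 892 of its 2656 exon bases with Lrrc61 on the opposite strand. The strand setting of the counting is not given in the sources used here. How reads within those shared bases were assigned is therefore not known.

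Nampt encodes visfatin, an enzyme of NAD salvage that is also found outside cells. It measured 104 and 122 CPM in aged and 85.4 and 92.1 CPM in young MFP. The ages did not overlap and the samples within an age lay close, at 113 ± 12.2 and 88.8 ± 4.75 CPM (SD, n = 2 each), and the log2 fold change was 0.35 (standard error 0.14) at an edgeR adjusted p of 0.501. Rbp4 encodes the blood carrier of retinol. It was at 89.2 and 168 CPM in aged and 132 and 110 CPM in young MFP, so the young samples lay between the aged ones. Its log2 fold change of 0.09 (standard error 0.35; edgeR adjusted p 0.929) turned to -0.44 without aged replicate 2, and to -0.11 and -0.16 when libraries were scaled by total counts or by fat cell markers.

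Apln encodes apelin, a peptide that acts on vessels and the heart through Aplnr. It measured 4.81 and 3.63 CPM in aged MFP (393 and 323 counts) and 11.2 and 15.1 CPM in young MFP (922 and 1115 counts). Both aged samples were below both young ones by far more than they differed from each other. The means were 4.22 ± 0.834 and 13.2 ± 2.73 CPM (SD, n = 2 each), and the fitted level was 3.12-fold lower in aged MFP. The log2 fold change was -1.64 with a standard error of 0.29, and the edgeR adjusted p was 0.360, a value that 270 genes share. DESeq2 called Apln lower at an adjusted p of 0.000143, which ran from 2.25e-05 to 0.334 over its 7 fits and failed without aged replicate 1 (0.0560) or aged replicate 2 (0.334). It passed when either young sample was left out, where the 1 young sample left was assumed to vary as the aged pair did. Apln lies at chrX:48025146-48034853 on the minus strand of GRCm38.

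Nrg4 encodes a growth factor of fat tissue that binds ErbB receptors. It measured 133 and 126 CPM in aged and 125 and 240.3 CPM in young MFP. Only young replicate 2 stood apart, at nearly double the other samples. That library also has the highest mammary epithelial markers. The log2 fold change of -0.49 (standard error 0.35) had an edgeR adjusted p of 0.588. DESeq2 called Nrg4 lower in 1 of its 7 fits, that without young replicate 1 (log2 fold change -0.89, adjusted p 0.0182), where young replicate 2 stood alone and was assumed to vary as the aged pair did. Its DESeq2 adjusted p ran up to 1.00 in the others, and without young replicate 2 the sign turned to 0.08. Nrg4 shares 368 of its 6075 exon bases with Fbxo22 on the opposite strand. How reads within those shared bases were assigned is not known here.

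Lepr encodes the leptin receptor. It measured 6.76 and 6.31 CPM in aged (553 and 562 counts) and 10.1 and 5.0 CPM in young MFP (831 and 369 counts). The 2 young samples enclosed the aged ones, and the log2 fold change of -0.21 (standard error 0.41; edgeR adjusted p 0.840) became 0.39 without young replicate 1. Young replicate 1 is also the library with the high lymphocyte markers. Leprot, a gene beside Lepr that shares its name, differed little, at 32.4 and 30.2 CPM in aged and 33.3 and 28.6 CPM in young MFP. The ratio of Lepr to Leprot counts was 0.209 in both aged samples and 0.304 and 0.175 in the young ones, so it too overlapped. The 2 genes do not overlap in the annotation, Leprot ending at 101659364 and Lepr starting at 101717404 on chromosome 4. Among 16559 genes compared by the root mean square difference of centred log2 CPM over the 4 samples, the nearest to Lepr were Ube2l6 (0.0305), Cd274 (0.0356) and Nudt16 (0.0389). The nearest to Lep were Rasgrf2 (0.0209), Pbld1 (0.0271) and Armc2 (0.0569). With 16559 genes ranked over only 4 samples, close matches can be found for many genes. No link of these genes to Lep or Lepr was tested.

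Because muscle and fat RNA share a library, the adipokines were also set against the fat cell markers of the same library, as log2 CPM minus the mean log2 CPM of the 10 markers. That marker mean was itself 0.32 higher in aged MFP, chiefly in 1 library. It was 9.62 and 9.20 in aged replicates 1 and 2 and 9.09 in both young samples. Of the 10 markers, 9 had a higher fit in aged MFP and 1, Dgat2, a lower one. Plin4 was at 2753 and 1119 CPM in aged replicates 1 and 2 and 1089 and 929 CPM in young MFP. Dgat2 was at 898 and 1900 CPM in aged and 1839 and 2083 CPM in young MFP. Relative to the marker mean, Lep was higher in aged MFP by 0.84 and Adipoq by 0.65, without overlap, where 8.14% of all genes were higher in both aged samples. With libraries scaled by the markers, DESeq2 no longer called Lep (adjusted p 0.149), and Adipoq had an adjusted p of 0.331. Cfd (0.18), Nampt (0.02) and Rarres2 (0.50) overlapped between the ages. Apln was lower by 1.96 and Nrg4 by 0.74 relative to the markers, without overlap, where 39.2% of all genes were lower in both aged samples. For Nrg4 the ages lay close, at -2.56 and -2.23 in aged and -2.12 and -1.18 in young MFP, and young replicate 2 stood apart. Retn (-0.40), Rbp4 (-0.30) and Lepr (-0.45) overlapped. Scaling by these markers lowered the median log2 fold change of all genes by 0.31, and scaling by total counts lowered it by 0.18.

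**Figure D3:**
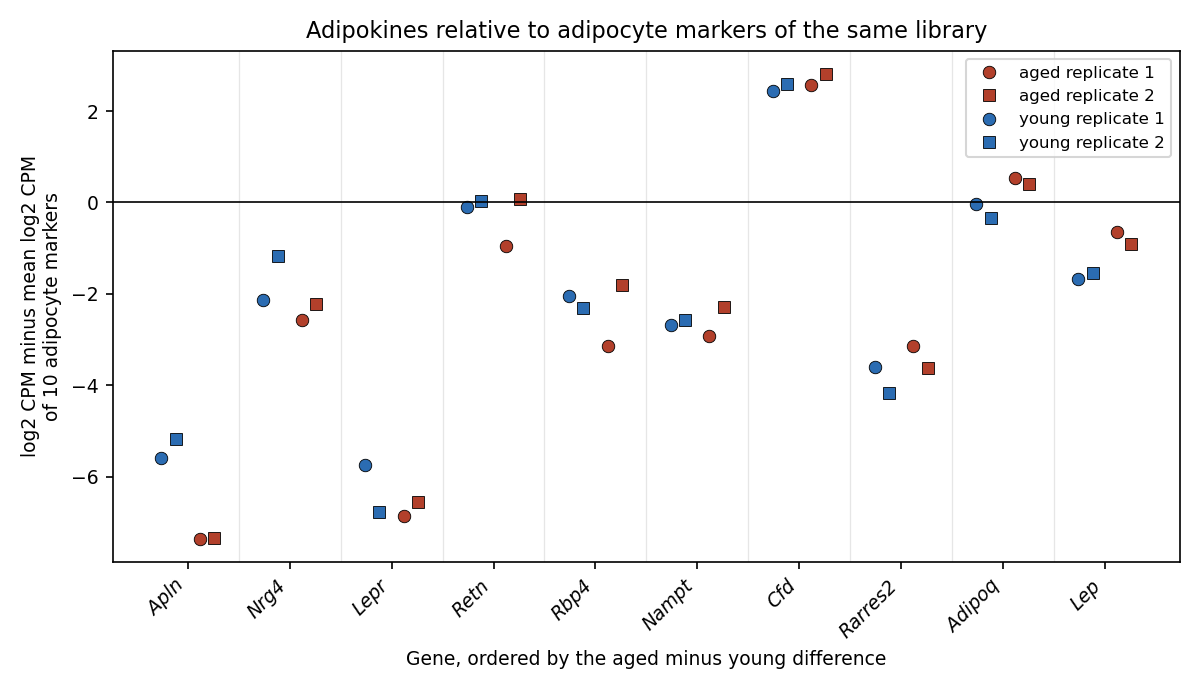
Log2 CPM of each gene minus the mean log2 CPM of 10 fat cell markers in the same library, 1 point per sample, ordered by the difference between ages. Lep and Adipoq lie higher in both aged samples, and Apln and Nrg4 lower. For Nrg4, aged replicate 2 lies close to young replicate 1.

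Ratios between adipokines within a library do not depend on scaling. These 4 ratios were chosen after their values were seen and carry no test. Lep over Adipoq was 0.441 and 0.404 in aged and 0.320 and 0.432 in young MFP, so the proportion of leptin to adiponectin RNA overlapped between the ages. Retn over Adipoq was 0.359 and 0.794 in aged against 0.959 and 1.29 in young MFP, lower in both aged samples. Cfd over Adipoq was 4.13 and 5.32 in aged against 5.57 and 7.65 in young MFP, also lower in both aged samples. Both ratios have Adipoq as divisor, and Adipoq itself was higher in both aged samples. Alone, Retn overlapped between the ages and Cfd was higher in both aged samples. How many of all genes would be lower relative to Adipoq was not computed. Lep over Retn was 1.23 and 0.509 in aged against 0.333 and 0.336 in young MFP.

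**Figure D4:**
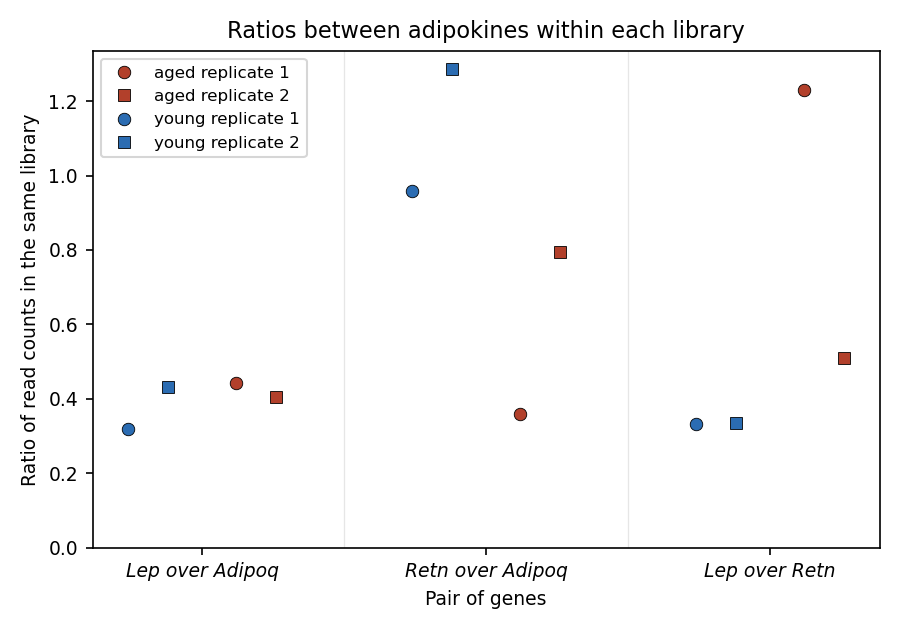
Ratio of read counts between pairs of adipokines in the same library, 1 point per sample, on a linear axis from 0. Lep over Adipoq overlaps between the ages, while Retn over Adipoq lies lower and Lep over Retn higher in both aged samples. Adipoq and Lep themselves were higher in both aged samples, and Retn itself overlapped.

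Of the 10 genes listed as adipokine receptors, 8 had a higher and 2 a lower fit in aged MFP, and the median log2 fold change was 0.29. No receptor was called by edgeR or by DESeq2, and 2 were higher at an unadjusted edgeR p under 0.05. For this and the lists that follow, 10558 of all 22485 genes tested had a higher fit and 11927 a lower one. The shares over all genes are 7.24% higher and 3.31% lower at an unadjusted edgeR p under 0.05, and 3.17% higher and 0.692% lower by DESeq2. Cmklr1, the chemerin receptor, was at 214 and 215 CPM in aged and 105 and 140 CPM in young MFP (log2 fold change 0.81, edgeR adjusted p 0.406). Adipor1, the adiponectin receptor of muscle, was at 151 and 167 CPM in aged and 104 and 114 CPM in young MFP (log2 fold change 0.55, edgeR adjusted p 0.409). Both aged samples lay above both young ones for 5 of the 10 receptors, where 23.3% of all genes did. These were Cmklr1, Adipor1, Adipor2, Ccrl2 and Erbb4. Stra6 alone lay below in both aged samples, where 22.8% of all genes did. Adipor2, the receptor prominent in liver, was the most abundant of them per length at a mean of 108 CPM per kb, and it measured 699 and 687 CPM in aged and 555 and 640.3 CPM in young MFP. The remaining receptors did not pass the test either, at log2 fold changes of 1.13 for Erbb4 and -0.42 for Erbb3, which bind neuregulins, 0.66 for Gpr1, 0.38 for Ccrl2, 0.16 for Cdh13, which binds adiponectin, 0.07 for Aplnr and -0.54 for Stra6, which takes up retinol. Aplnr, the receptor of apelin, overlapped between ages, at 39.4 and 24.0 CPM in aged and 25.9 and 34.3 CPM in young MFP, beside the lower Apln.

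**Figure D5:**
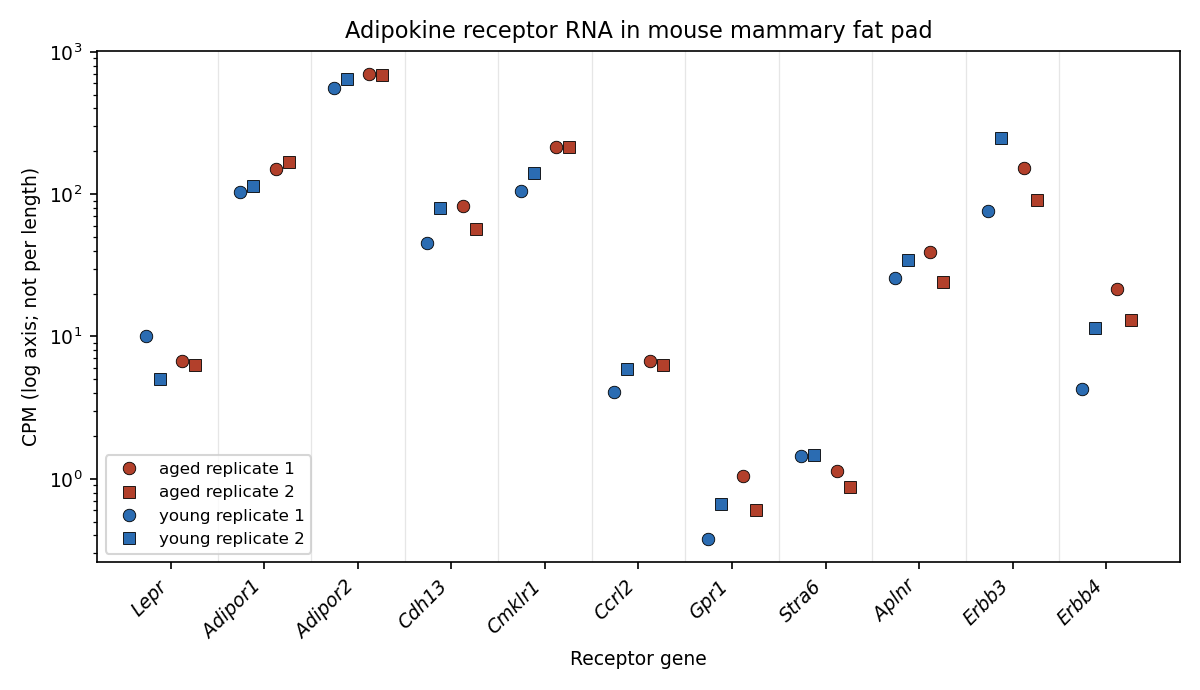
CPM of each adipokine receptor in each MFP sample on a log axis, not scaled by length. Cmklr1, Adipor1, Adipor2, Ccrl2 and Erbb4 lie higher in both aged samples, Stra6 lies lower, and Aplnr overlaps.

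The genes downstream of leptin showed no shared direction. Of 12 leptin receptor signalling genes, 6 had a higher and 6 a lower fit, with a median log2 fold change of 0.00 and no call by edgeR or DESeq2, and 1 in each direction had an unadjusted edgeR p under 0.05. Socs3, the inhibitor that leptin induces, was at 17.2 and 15.3 CPM in aged and 21.4 and 31.7 CPM in young MFP, lower in both aged samples at a log2 fold change of -0.71 (edgeR adjusted p 0.474). Stat5a, a transcription factor of the pathway, had a log2 fold change of -0.55 with overlap.

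Of 11 genes of adiponectin assembly and signalling, 10 had a higher fit, with a median log2 fold change of 0.19. DESeq2 called 1 higher and edgeR none, and 3 were higher at an unadjusted edgeR p under 0.05. Prkaa2, the catalytic subunit of AMP-activated kinase that is prominent in muscle, was at 106 and 185 CPM in aged and 36.2 and 59.6 CPM in young MFP, with a log2 fold change of 1.60 (DESeq2 adjusted p 0.0134, edgeR adjusted p 0.408). The muscle markers are higher in the same samples, while Nmrk2, a kinase of muscle given below, was lower in both. The part of muscle RNA in these values was not tested. Plod2, a lysyl hydroxylase, had a log2 fold change of 1.03 (edgeR adjusted p 0.451).

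Of 32 other adipokines, 25 were tested, and 16 had a higher and 9 a lower fit, with a median log2 fold change of 0.42. DESeq2 called 3 higher (Sfrp5, Ccdc80 and Ccn5) and edgeR called none, while 7 were higher and 2 lower at an unadjusted edgeR p under 0.05. Sfrp5, a secreted inhibitor of Wnt signalling, was at 16.1 and 4.97 CPM in aged and 1.20 and 1.75 CPM in young MFP, and aged replicate 1 was 3.24-fold above aged replicate 2. Its log2 fold change was 2.84 (DESeq2 adjusted p 0.00107, edgeR adjusted p 0.406). Fgf21, a metabolic hormone best known from liver, was low throughout, at 26 and 55 counts in aged and 7 and 6 counts in young MFP.

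The pathways of the enzymatic adipokines were mixed. Of 13 genes of NAD salvage and use, to which Nampt belongs, 5 had a higher and 8 a lower fit (median log2 fold change -0.12), none was called by edgeR or DESeq2, and 1 was lower at an unadjusted edgeR p under 0.05. Nmrk2, a nicotinamide riboside kinase of muscle, was that gene, at a log2 fold change of -1.54 (edgeR adjusted p 0.445), and Cd38, an enzyme that consumes NAD, overlapped at -0.53. Of 8 genes of the alternative complement pathway, which Cfd starts, 3 had a higher and 5 a lower fit (median -0.16), and none was called by edgeR or DESeq2, with 2 higher at an unadjusted edgeR p under 0.05. C3ar1, the C3a receptor, was at 8.35 and 8.39 CPM in aged and 2.71 and 4.65 CPM in young MFP (log2 fold change 1.19, edgeR adjusted p 0.431).

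Of 10 genes of retinoid transport and metabolism, around Rbp4, 9 were tested, 7 had a higher fit and 2 a lower one, with a median log2 fold change of 0.24. DESeq2 called 2 higher and edgeR none, and at an unadjusted edgeR p under 0.05 there were 2 higher and 1 lower. Aldh1a1, which makes retinoic acid, was at 66.2 and 67.2 CPM in aged and 25.8 and 27.5 CPM in young MFP (log2 fold change 1.32, edgeR adjusted p 0.360). Rarb, a retinoic acid receptor, had a log2 fold change of 1.37 (edgeR adjusted p 0.361), and Aldh1a2, a related enzyme, was low and at -1.58. Of 11 regulators of adipokine genes, 9 had a higher fit, with a median log2 fold change of 0.27, and DESeq2 called Rxra (log2 fold change 0.78) and Ppargc1a (0.73) higher while edgeR called none, with 3 higher at an unadjusted edgeR p under 0.05. Pparg, the nuclear receptor at the head of fat cell differentiation, was at 213 and 193 CPM in aged and 114 and 136 CPM in young MFP (log2 fold change 0.70, edgeR adjusted p 0.404).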

How the data were processed

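RNA was sequenced from 2 aged and 2 young MFP samples after ribosomal RNA depletion with a directional kit. The deposited values are raw counts of reads per gene, which the authors made before deposit. The submitters' processing notes name featureCounts, R 3.6.1 and the build GRCm38, and list hg38 too. The aligner, annotation release and strand setting are not given in the sources used here. Samples were grouped by the age in their titles. All 55487 genes, with 20682 at 0 in every sample, were read, and 22485 passed the filterByExpr filter of edgeR 4.0.16 (R 4.3.3). Aged was compared with young by edgeR's quasi-likelihood test with TMM scaling, on the 22485 genes, and by DESeq2 1.42.0, an alternative, which gave an adjusted p to 22385 genes, with Benjamini-Hochberg adjustment at 0.05. Fits were tested on simulated data. CPM was computed after TMM scaling, with a prior count of 2 where it was logged. Lengths and gene coordinates are from GENCODE M21 (GRCm38), which holds 55227 of the gene IDs, and promoters from RefSeq. The floor of 3 counts covers counting error only. SDs cover the spread between the 2 samples of an age, and edgeR standard errors come from the fit, which includes that spread. The named genes are the 10 adipokine and receptor genes, every adipokine receptor, Leprot, the 2 genes of largest fold change of each pathway list and the 3 genes nearest in pattern to Lep and Lepr. A gene that this rule names is not reported here. Pparg, Ccdc80, Ccn5, Aldh1a1 and the ratios were named after their values were seen. The members and lists were chosen with earlier results of these data known. Alternatives changed the scaling, filter, test and samples. Same-numbered samples deviated in opposite directions (correlation -0.48 over 22485 genes), and nothing in the labels ties them, so no pairing was used. DESeq2 fits that left out a sample or changed the scaling, and a crossed block, were added after seeing the data. No column of another series was used.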

Additional observations from a re-analysis of the deposited data

How the results depend on the processing

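edgeR called none of the 10 genes under any alternative run. DESeq2 called 1 of them higher and 1 lower on the 4 samples (865 of all genes called), 2 and 2 without young replicate 1 (766), 1 and 1 without young replicate 2 (3437), none without aged replicate 1 (303) or aged replicate 2 (140), and 0 higher and 1 lower with scaling by fat cell markers (400) or by total counts (729). Across edgeR fits that left out 1 sample, Retn ran from -0.38 to 0.20, Rbp4 from -0.44 to 0.46, Nrg4 from -0.89 to 0.065 and Lepr from -0.62 to 0.39 on the log2 scale, and Adipoq, Lep, Cfd, Nampt, Rarres2 and Apln did not turn. Rbp4 was -0.11 with total counts and -0.16 with marker scaling, in edgeR and DESeq2. DESeq2 fits that left out a sample gave Retn 0.22 without aged replicate 1 and 0.035 without young replicate 2, Rbp4 -0.43 without aged replicate 2 and -0.017 without young replicate 2, Nrg4 0.078 without young replicate 2 and Lepr 0.39 without young replicate 1. The cause of these turns was not tested. The median of the 10 was 0.22, between 0.04 and 0.36 without 1 sample, 0.03 with total counts and -0.05 with marker scaling.

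With a replicate block, 0 genes were called, the median was 0.18 and Lep, Adipoq and Apln were at 1.16, 0.98 and -1.64. The numbers do not pair the samples. With the numbers crossed, 0 genes were called.

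With 2 samples a group the spread between samples, not depth, limits these values, and since the labels do not say that samples were separate mice, p-values measure only the spread between these samples.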
